A study of Mus musculus with 11 samples.

Results

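The 7 regulators of G protein signalling described here are Rgs1, Rgs2, Rgs10, Rgs14, Rgs16, Rgs18 and Rgs19, the members of the RGS gene family usually listed for myeloid cells. They were taken by symbol from a table of 25121 genes, and all 7 were found and passed the filter on low counts. Their messenger RNA was measured by bulk sequencing in 11 libraries of mouse primary macrophages grown from bone marrow. In 5 libraries the cells had received TGF-β1 (5 ng/mL) with hemin (10 µM), and in 6 libraries TGF-β1 (5 ng/mL) without hemin, for 72 h in both groups. The macrophages sat in Transwell inserts above primary renal proximal tubular epithelial cells and were collected from the inserts. Every library therefore carries TGF-β1 and the tubular co-culture, and the comparison asks what hemin added to them. The mouse strain and age, and whether libraries came from separate animals or cultures, are not stated in the labels, so the spread between libraries may be technical. The members were chosen with results of this same comparison in view. Their differences are therefore given as descriptions, without p-values. Where a member is said to pass or miss a threshold, this describes the setting and is not a test of the member.

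A seven-transmembrane receptor switches on a heterotrimeric G protein by loading its α subunit with GTP, and RGS proteins bind that loaded subunit and speed up GTP hydrolysis, which ends the signal. In leukocytes this sets how strongly and how long a cell answers chemokines, nucleotides, prostaglandins and sphingosine phosphate. TGF-β1 is a cytokine that drives fibrosis, and hemin is oxidised haem, a substrate and inducer of haem oxygenase.

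Library totals ran from 66.7 to 96.6 M counts with hemin and from 65.5 to 71.5 M counts without it, and hemin replicates 5 and 6 were the deepest. Hmox1, which encodes the inducible haem oxygenase, averaged 7483 ± 179 CPM (counts scaled to library size with TMM factors) with hemin and 1528 ± 88.9 CPM with TGF-β1 alone (SD, n = 5 and 6), 4.90-fold higher with hemin (adjusted p = 7.82e-14 by edgeR's quasi-likelihood test). The macrophage markers Csf1r and Adgre1 were high in every library, at 256 to 297 FPKM and 191 to 196 FPKM with hemin, against 253 to 306 FPKM and 166 to 198 FPKM with TGF-β1 alone. FPKM is the authors' count per kilobase of transcript, scaled to library size, the scale on which levels of different genes can be compared. Of 10 marker lists for cells the cultures could hold, the platelet list alone differed between groups, and the other 9 had adjusted p from 0.0649 to 0.905 (exact permutation tests). The macrophage list, at 0.905, averaged genes that moved in different directions. In edgeR, Cd68 (0.33, adjusted p = 0.00139), Cd14 (0.22, adjusted p = 0.0162) and Adgre1 (0.17, adjusted p = 0.00893) were higher with hemin on the log2 scale. Lyz2 (0.32) and Csf1r (0.11) leaned higher, and Mertk (-0.11), Fcgr1 (-0.10) and C1qa (-0.13) leaned lower, without passing the threshold of 0.05. The list result therefore does not show that each marker was stable. Kidney tubular markers summed to 0.629 to 2.64 FPKM with hemin and 0.355 to 3.26 FPKM with TGF-β1 alone.

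Of the 7 members, Rgs16 was the one with separated groups. Its level was about 5 times lower with hemin, while the other 6 differed by less than 0.35 on the log2 scale. Rgs16 is a small protein, little more than the RGS domain, that acts on the Gi and Gq classes of α subunit and is known from mouse work on lymphocyte trafficking. It lies on chromosome 1, 153616095 to 153621214, plus strand (GRCm39, ENSMUSG00000026475). The bases upstream of its start are printed here beside those of Rgs2, another short member on the same chromosome whose level was nearly equal in both groups. Both are RefSeq sequence of an earlier build, GRCm38.p6, and cover the 250 bases before the annotated start, at chr1:153740103-153740352 (plus strand) for Rgs16 and chr1:144004150-144004399 (minus strand) for Rgs2. Capitals mark matches to the searched motifs.
Rgs16: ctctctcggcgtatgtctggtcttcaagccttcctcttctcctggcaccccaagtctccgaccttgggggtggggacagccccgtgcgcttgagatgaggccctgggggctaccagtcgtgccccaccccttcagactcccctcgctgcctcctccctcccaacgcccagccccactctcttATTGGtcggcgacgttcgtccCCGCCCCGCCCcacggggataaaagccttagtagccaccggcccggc
Rgs2: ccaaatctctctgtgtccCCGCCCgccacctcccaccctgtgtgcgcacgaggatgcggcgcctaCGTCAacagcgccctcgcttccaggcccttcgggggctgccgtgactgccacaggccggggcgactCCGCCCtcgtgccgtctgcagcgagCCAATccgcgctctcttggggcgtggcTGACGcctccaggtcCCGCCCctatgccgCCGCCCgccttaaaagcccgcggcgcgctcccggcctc

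The motifs were 12 in number and were searched on both strands in 32841 promoter windows of the same length. The Rgs16 window held 1 CCAAT box, read on the minus strand 68 to 64 bases before the start, and 2 overlapping GC boxes, GGGCGG on the minus strand, at 47 to 42 and 42 to 37 bases. CCAAT occurred in 33.9% of all windows and GGGCGG in 32.7%, and both were added after the sequence had been seen. The Rgs2 window also held 1 CCAAT box and 4 GC boxes. It further held the short cAMP response site TGACG at 185 to 181 bases, on the minus strand, and at 67 to 63 bases, on the plus strand, a motif in 17.8% of all windows. The Rgs16 window had no match to TGACG, to the full cAMP response element TGACGTCA (1.55% of windows), to the AP-1 site TGANTCA (6.75%) or to the antioxidant response element core TGACNNNGC (10.2%). Nor did its letters match the E-box CACGTG (6.02%), the NF-kB motif (3.9%), the STAT site TTCNNNGAA (7.02%), the interferon response element (2.98%), the SMAD box GTCTAGAC (0.167%) or the TATA box TATAAA (12.4%). RefSeq windows were matched by symbol for 4 of the 7 members. Those of Rgs10 and Rgs19 matched no searched motif other than the GC box. GC content was 66.4% for Rgs16 and 72.4% for Rgs2.

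Rgs16 had 2.04, 1.47, 0.889, 1.80 and 1.64 CPM in hemin replicates 2 to 6. In TGF-β1 replicates 1 to 6 it had 8.61, 7.08, 5.60, 6.91, 9.64 and 9.13 CPM. The highest hemin library was below the lowest TGF-β1 library, and a gap of this kind was found for 10.2% of the 15132 genes tested. The means were 1.57 ± 0.433 CPM with hemin and 7.83 ± 1.54 CPM with TGF-β1 alone (SD, n = 5 and 6), and the fitted log2 fold change was -2.32 (SE 0.20, 95% interval -2.75 to -1.89), a level 4.99-fold lower with hemin. These values rest on 61 to 165 reads per hemin library and 392 to 717 reads per TGF-β1 library. Rgs16 was 1 of 7 members past the adjusted threshold of 0.05, and over all tested genes edgeR called 14.2%, with 8.43% higher and 5.75% lower. Since the members were chosen on this comparison, nothing is read from that share.

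**Figure D1:**
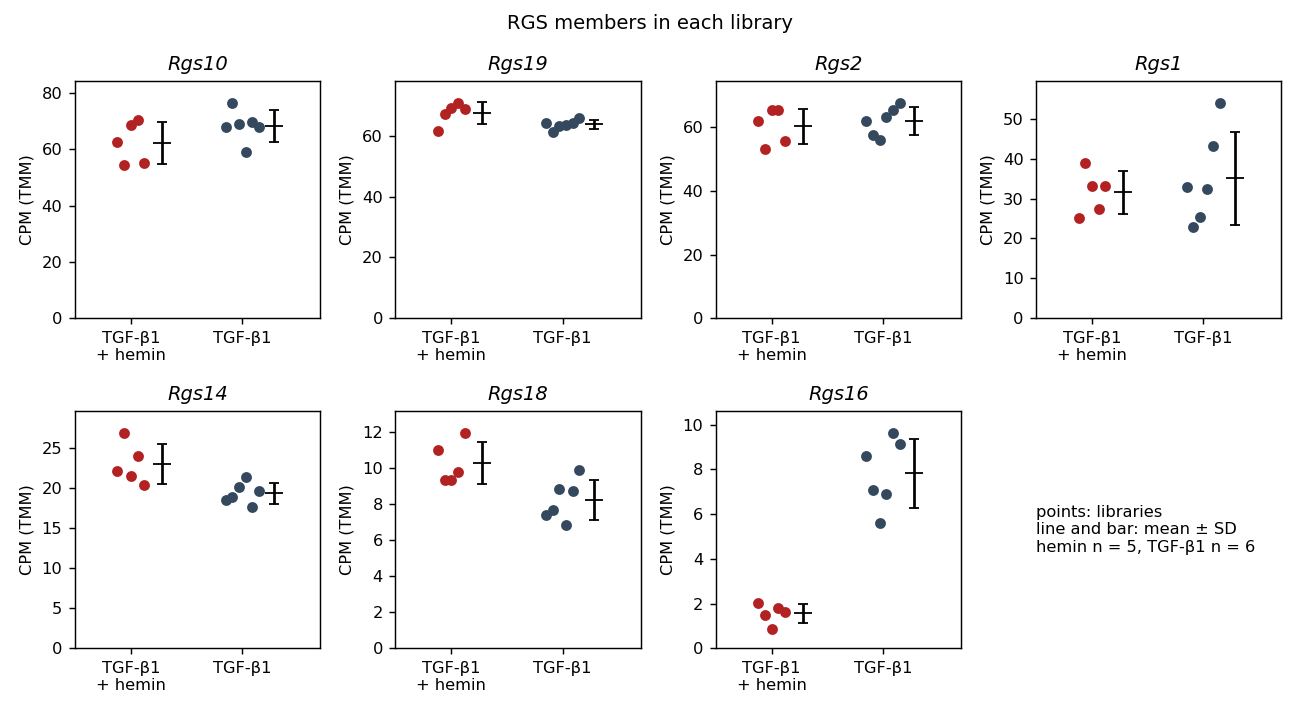
Level of each member in CPM (TMM-scaled, linear axis from 0) in every library, with hemin on the left and TGF-β1 alone on the right. Points are libraries, and lines with bars are means ± SD. Rgs16 lies at 0.889 to 2.04 CPM with hemin and 5.60 to 9.64 CPM with TGF-β1 alone, while the groups of the other 6 overlap.

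The next members, Rgs1, Rgs2 and Rgs18, belong with Rgs16 to the subfamily of short RGS proteins. Rgs1, which dampens chemokine responses of lymphocytes and is a marker of activated leukocytes, had 25.2, 38.9, 33.3, 27.3 and 33.1 CPM in hemin replicates 2 to 6. Its TGF-β1 libraries, replicates 1 to 6, had 32.8, 22.9, 25.4, 32.5, 43.1 and 54.0 CPM. It was the most variable member of the TGF-β1 group, with a coefficient of variation of 17.1% with hemin and 33.1% with TGF-β1 alone, and TGF-β1 replicates 5 and 6 were above every hemin library. The log2 fold change was -0.15 (SE 0.18, 95% interval -0.55 to 0.24). Leaving out single libraries in turn moved it between -0.26 and 0.01.

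Rgs2, which prefers the Gq class of α subunit and is known for lowering vascular tone in mice, had 61.9, 53.3, 65.3, 65.4 and 55.8 CPM in hemin replicates 2 to 6. In TGF-β1 replicates 1 to 6 it had 62.0, 57.7, 56.1, 63.3, 65.4 and 67.8 CPM. The groups overlapped over nearly their whole range. The log2 fold change was -0.04 (SE 0.07, 95% interval -0.18 to 0.10) on the count scale. It was -0.14 on log2(FPKM + 1) and -0.15 on log2(FPKM + 0.1), and Rgs2 did not pass the threshold on either.

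Rgs18, best known from platelets and megakaryocytes, had 11.0, 9.36, 9.39, 9.80 and 12.0 CPM in hemin replicates 2 to 6. In TGF-β1 replicates 1 to 6 it had 7.42, 7.70, 8.87, 6.87, 8.75 and 9.89 CPM. TGF-β1 replicate 6 lay among the hemin libraries, and the other 5 TGF-β1 libraries were below all of them. The means were 10.3 ± 1.15 CPM with hemin and 8.25 ± 1.12 CPM with TGF-β1 alone, with a log2 fold change of 0.32 (SE 0.11, 95% interval 0.09 to 0.55). Platelet and megakaryocyte markers moved in the same direction between groups, and their part in the Rgs18 difference was not tested. Within groups, deviations of this marker list from the group means correlated with those of Rgs18 at -0.12 over 11 libraries, a description. The list mean of log2(FPKM + 1) was 2.92 with hemin and 1.91 with TGF-β1 alone (exact permutation test, 2-sided p = 0.0022, the smallest these groups allow, adjusted over 10 marker lists p = 0.0216). The summed level of the 4 platelet and megakaryocyte markers in the table was 263 to 347 FPKM with hemin and 85.0 to 132 FPKM with TGF-β1 alone. Nearly all of it was Pf4, a chemokine of platelet granules that macrophages also express, at 284 FPKM with hemin and 99.4 FPKM with TGF-β1 alone (edgeR log2 fold change 1.63, adjusted p = 1.26e-08), followed by Ppbp at 8.60 FPKM and 0.870 FPKM (log2 fold change 3.41, adjusted p = 1.79e-09). The defining surface markers were near 0. Itga2b ran from 0 to 0.029 FPKM with hemin and was listed at 0 in every library with TGF-β1 alone, and Gp1ba averaged 0.185 FPKM and 0.084 FPKM.

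Rgs10 and Rgs14 belong to 1 subfamily, which acts mainly on the Gi class. Rgs10, a short protein that restrains inflammatory activation of microglia in mice, had 62.7, 54.5, 68.8, 70.4 and 55.1 CPM in hemin replicates 2 to 6. In TGF-β1 replicates 1 to 6 it had 68.0, 76.7, 69.0, 58.9, 69.6 and 67.9 CPM. Hemin replicates 3 and 6 were below every TGF-β1 library, and the other 3 fell among them. The log2 fold change was -0.13 (SE 0.08, 95% interval -0.30 to 0.03) on the count scale. On the authors' FPKM the means were 32.5 ± 3.34 with hemin and 38.5 ± 2.44 with TGF-β1 alone, a log2 difference of -0.24 on log2(FPKM + 1), and on that scale Rgs10 passed the threshold too. The FPKM scale moves the median of all tested genes by -0.06 at this pseudocount, so relative to the median gene the Rgs10 difference is nearer to 0 than -0.24. A minor overlapping gene on the same strand, Gm15503, averaged 31 counts per library against 4842 for Rgs10.

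Rgs14, a multidomain scaffold that also carries a GoLoco motif for inactive Gi and Ras-binding domains, had 22.2, 26.9, 21.6, 24.1 and 20.4 CPM in hemin replicates 2 to 6. In TGF-β1 replicates 1 to 6 it had 18.5, 19.0, 20.1, 21.4, 17.6 and 19.7 CPM. The groups overlapped through hemin replicate 6 and TGF-β1 replicate 4. The means were 23.0 ± 2.56 CPM with hemin and 19.4 ± 1.34 CPM with TGF-β1 alone, and the log2 fold change was 0.25 (SE 0.08, 95% interval 0.08 to 0.42). As a description of the settings, Rgs14 fell short of the adjusted threshold in edgeR and passed it in DESeq2.

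Rgs19, a member with a palmitoylated cysteine string that was found as a partner of Gαi3, had 61.5, 67.2, 69.3, 70.9 and 68.7 CPM in hemin replicates 2 to 6. In TGF-β1 replicates 1 to 6 it had 64.3, 61.4, 63.2, 63.6, 64.1 and 66.0 CPM. It was the least variable member in both groups, with a coefficient of variation of 5.33% with hemin and 2.35% with TGF-β1 alone. The log2 fold change was 0.08 (SE 0.04, 95% interval -0.01 to 0.18), and its sign turned on the FPKM scale, where it was -0.03 at either pseudocount.

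On the scale that allows genes to be compared, Rgs10 was the most abundant member, followed by Rgs19 and Rgs2. With hemin they averaged 32.5 ± 3.34, 27.1 ± 1.43 and 14.9 ± 1.12 FPKM, and with TGF-β1 alone 38.5 ± 2.44, 27.6 ± 1.30 and 16.5 ± 1.55 FPKM. In neither group did the ranges of these 3 genes overlap each other. Rgs1, Rgs14 and Rgs18 formed a middle tier whose ranges overlapped in both groups, at 4.06 ± 0.736, 4.87 ± 0.589 and 4.54 ± 0.554 FPKM with hemin and 4.90 ± 1.71, 4.41 ± 0.365 and 3.92 ± 0.575 FPKM with TGF-β1 alone. Rgs16 stood below this tier with hemin, at 0.328 to 0.779 FPKM, and with TGF-β1 alone it ran from 2.30 to 4.05 FPKM, overlapping Rgs1 and Rgs18 but not Rgs14.

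**Figure D2:**
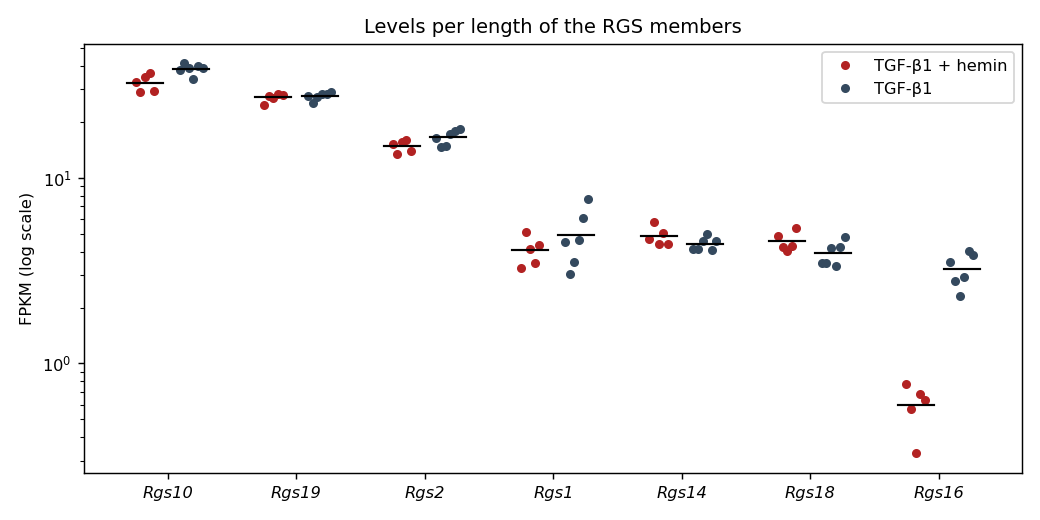
Level of each member in the authors' FPKM (log axis) in every library, hemin left of TGF-β1 alone for each gene, with horizontal lines at the group means. Rgs10, Rgs19 and Rgs2 lie between 13.4 and 41.2 FPKM in all libraries, Rgs1, Rgs14 and Rgs18 between 3.03 and 7.64 FPKM, and Rgs16 overlaps Rgs1 and Rgs18 with TGF-β1 alone but not with hemin.

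Within each library Rgs16 could be set against the others. The ratio of Rgs18 to Rgs16 in FPKM averaged 8.11 with hemin (range 6.22 to 12.2) and 1.25 with TGF-β1 alone (range 0.993 to 1.82). The ratio of Rgs10 to Rgs16 averaged 59.8 with hemin (range 42.1 to 106) and 12.4 with TGF-β1 alone (range 9.88 to 16.8). The 7 members together summed to 88.5 ± 3.79 FPKM with hemin and 99.0 ± 5.46 FPKM with TGF-β1 alone, a log2 ratio of -0.16, against a median shift of -0.10 over all tested genes on the same scale. Rgs16 made up 0.679% of that sum with hemin and 3.25% with TGF-β1 alone. Rgs10 made up 36.7% with hemin and 38.9% with TGF-β1 alone, and without Rgs10 the log2 ratio of the sum was -0.11.

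4 of the 7 members lie on chromosome 1. Rgs2 (143875076 to 143879899, minus strand), Rgs1 (144118034 to 144124980, minus strand) and Rgs18 (144628421 to 144651173, minus strand) follow each other with gaps of 238 kb and 503 kb. Rgs16 lies 8.96 Mb beyond Rgs18. Their log2 fold changes in this order were -0.04, -0.15, 0.32 and -2.32. The other members are on chromosome 7 (Rgs10, 127975345 to 128020482, minus strand), chromosome 13 (Rgs14, 55517545 to 55532500, plus strand) and chromosome 2 (Rgs19, 181330215 to 181335770, minus strand).

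Before Rgs16 on the chromosome, the nearest tested gene was the processed pseudogene Gm6652, which had 0.588 CPM with hemin and 0.537 CPM with TGF-β1 alone. In a window of 1 Mb on each side of the Rgs16 start, chosen after the values had been seen, 14 other genes were tested. Glul, the glutamine synthetase gene, rose (0.28, edgeR adjusted p = 5.03e-04) and so did Rgl1, a Ral exchange factor gene (0.67, adjusted p = 9.72e-06). Dhx9, an RNA helicase gene (-0.35, adjusted p = 7.34e-04), and Npl, a sialic acid lyase gene (-0.26, adjusted p = 0.0153), fell. None of these differences had the size of that of Rgs16, and the median over the window was 0.04. The nearest tested genes of the remaining members, Uchl5, Rusf1, Tial1, Lman2, Grk6, Tcea2, Pcmtd2 and Gm15583, did not pass the threshold.

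Within groups, the members did not vary together as a set. Over the 21 pairs of members, correlations of the deviations from the group means across the 11 libraries ran from -0.45 for Rgs14 with Rgs18 to 0.51 for Rgs1 with Rgs19, as a description of libraries that share their depth scaling. The genes whose deviations were most like those of Rgs16, among 9446 protein coding genes, were Ehd2 (r = 0.93), which encodes a caveolar ATPase, and Col4a2 (r = 0.91), which encodes a chain of basement membrane collagen. Rgs1 was most like Cuedc1 (0.92) and Stam (0.90), Rgs2 most like Tnfrsf23 (0.89) and Cd72 (0.88), and Rgs10 was close to Tmem60 (0.92). Rgs14 was most like Hnrnpr (0.92) and Lsm14b (0.91), Rgs18 most like Slc25a46 (0.91) and Carhsp1 (0.90), and Rgs19 most like Leng1 (0.95) and Crcp (0.92). The highest of so many correlations over 11 libraries is large whatever the genes are.

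The deviations had the group means removed, so likeness within groups does not bear on the difference between groups. Ehd2 and Col4a2 had log2 fold changes of -0.35 (SE 0.25) and -0.22 (SE 0.20), neither past the threshold (edgeR, adjusted p = 0.418 and 0.580), beside -2.32 for Rgs16. Cd72, a lectin of B cells and macrophages, rose by 1.18 on the log2 scale (SE 0.07, adjusted p = 7.10e-09), beside -0.04 for Rgs2. Apart from Cd72, the like genes named for the remaining members did not pass the threshold. Their log2 fold changes ran from -0.12 for Crcp to 0.30 for Leng1.

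Markers of fibroblasts and mural cells also varied within groups with Rgs16 (r = 0.82 over 11 libraries, a description). This was the highest correlation of any member with any of the 10 marker lists. Lists of other cells came near it, with 0.73 for Rgs2 and T or NK cells and 0.71 for Rgs19 and erythroid cells. Rgs16 itself had 0.56 with kidney tubular markers. The fibroblast and mural list held Col1a1, Col1a2, Pdgfra, Pdgfrb, Acta2 and Rgs5, the last an RGS gene typical of pericytes. All 6 were in the table, and they summed to 52.9, 38.2, 29.5, 42.4 and 51.4 FPKM in hemin replicates 2 to 6 and to 54.4, 48.8, 38.4, 40.8, 73.0 and 92.3 FPKM in TGF-β1 replicates 1 to 6. The groups overlapped, and their mean of log2(FPKM + 1) differed by -0.25 (exact permutation test, 2-sided p = 0.11, adjusted over 10 lists p = 0.276). None of the 6 markers passed in edgeR, with log2 fold changes from -0.71 for Col1a1 and -0.60 for Col1a2 to 0.89 for Rgs5. Their part in the Rgs16 difference was not tested. Rgs18 and Rgs1 correlated less with the fibroblast and mural list (0.68 and 0.54). In bulk RNA, fewer cells of a type and less RNA per cell cannot be told apart.

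**Figure D3:**
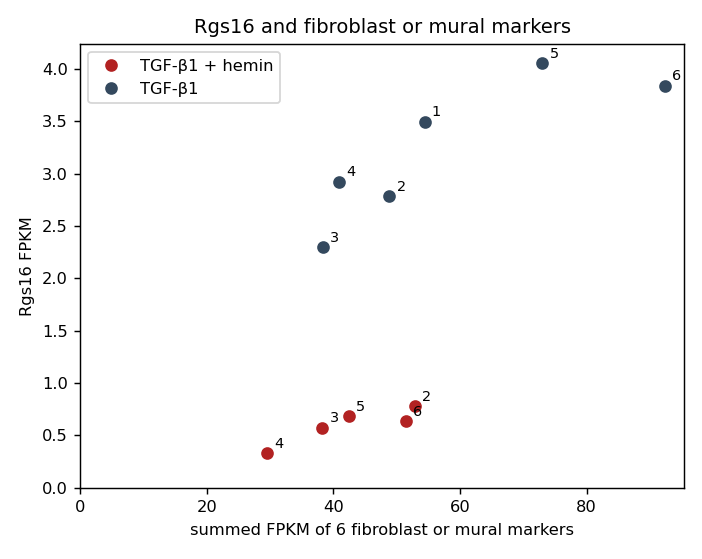
Rgs16 in FPKM (vertical) against the summed FPKM of 6 fibroblast or mural cell markers (horizontal), 1 point per library with its replicate number, both axes linear from 0. All hemin libraries lie below 0.78 FPKM of Rgs16 and all TGF-β1 libraries at 2.30 FPKM or above. The marker sums of the groups overlap.

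The rest of the RGS family was sparse in these cells. Of 17 other RGS genes and RGS-binding partners looked for by symbol, 11 were in the table and 7 passed the filter on low counts. None of the 7 was called by edgeR at the adjusted threshold, 1 of them had an unadjusted p under 0.05, and DESeq2 and limma called none. Rgs3, a Gi and Gq regulator, had 17.4 ± 2.65 CPM with hemin and 14.5 ± 1.15 CPM with TGF-β1 alone (log2 fold change 0.26, SE 0.10, edgeR adjusted p = 0.107). It passed when hemin replicate 2 was left out, at 0.33. Rgs12, a large scaffold related to Rgs14, had 22.3 ± 2.64 CPM with hemin and 22.5 ± 1.80 CPM with TGF-β1 alone (-0.01, SE 0.09).

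Per length, Rgs3 and Rgs12 averaged 1.44 and 2.35 FPKM with hemin and 1.29 and 2.55 FPKM with TGF-β1 alone, above Rgs16 with hemin and below all 7 members with TGF-β1 alone. The remaining tested genes were at trace levels. Rgs11 had 1.39 ± 0.731 CPM with hemin and 1.43 ± 0.689 CPM with TGF-β1 alone, and Rgs7bp, a membrane anchor of neuronal RGS proteins, had 1.26 ± 0.461 CPM and 0.895 ± 0.188 CPM (0.49, SE 0.29). Rgsl1, whose position 104 kb beyond the Rgs16 start puts it in the window described above, had 0.480 ± 0.331 CPM with hemin and 0.170 ± 0.123 CPM with TGF-β1 alone (1.48, SE 0.73, edgeR adjusted p = 0.218). Rgs9 had 0.266 CPM with hemin and 0.269 CPM with TGF-β1 alone, and Rgs5 had 0.258 CPM and 0.140 CPM. Rgs4, Rgs17, Rgs20 and Rgs9bp were listed but too low to test.

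**Figure D4:**
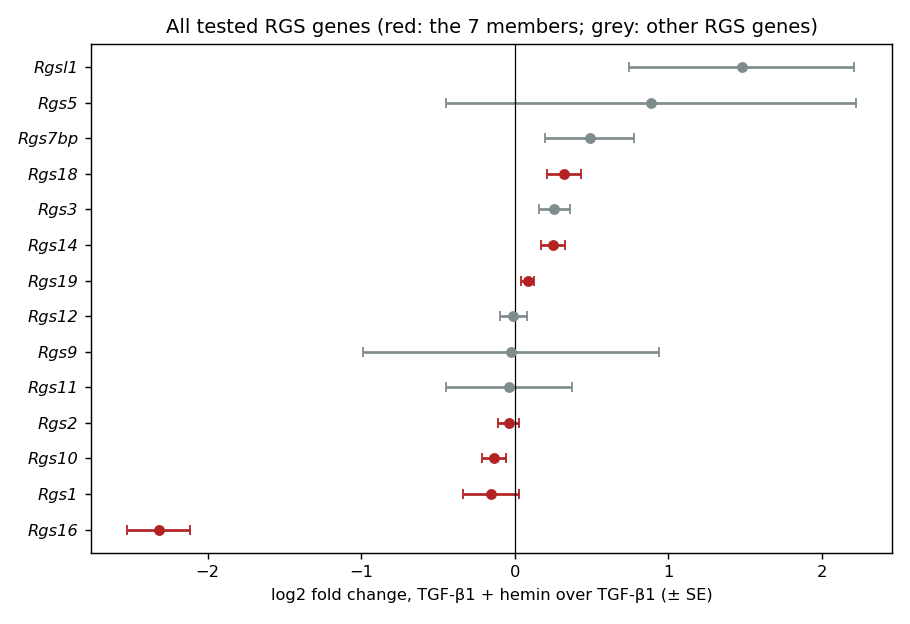
Log2 fold change, TGF-β1 with hemin over TGF-β1 alone, of the 14 tested RGS genes, with bars of ± SE. The 7 members are in red and the other RGS genes in grey. Rgs16 lies at -2.32 and the other 6 members between -0.15 and 0.32, and the widest bars belong to Rgs5, Rgs9 and Rgsl1, which had under 1 CPM. On the FPKM scale Rgs19 turns to -0.03.

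The pathway around the members was followed through 11 lists made from textbook families, with 191 genes, of which 179 were in the table and 155 were tested. Of these, 30 rose and 17 fell, which is 30.3% of the 155, against 14.2% of all tested genes. With only genes of mean FPKM of at least 1 kept, edgeR called 2116 of 10404 genes. The lists were chosen with earlier results of these data known, so nothing is read from the excess over all genes. The balance of higher and lower list genes depended on the scaling. On log2(FPKM + 1) and log2(FPKM + 0.1), 19 were higher and 31 or 32 lower, and the split over all genes moved likewise, with 759 higher and 2136 lower on log2(FPKM + 1) against 1276 higher and 870 lower in edgeR. Every named list gene that passed in edgeR kept its sign on these scales, and those that no longer passed are marked as such.

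Receptors stand first in the pathway. Of 19 tested chemoattractant receptor genes, 7 rose and 3 fell, with a median of 0.09. C3ar1, the receptor of complement C3a, averaged 716 ± 58.5 CPM with hemin and 552 ± 14.1 CPM with TGF-β1 alone (log2 fold change 0.38, adjusted p = 1.06e-04). Fpr1, a formyl peptide receptor, averaged 5.43 ± 0.954 CPM with hemin and 2.51 ± 0.395 CPM with TGF-β1 alone (1.11, adjusted p = 1.08e-04). The chemokine receptors of monocytes were lower. Ccr2 averaged 3.29 ± 0.415 CPM with hemin and 6.48 ± 0.389 CPM with TGF-β1 alone (-0.98, adjusted p = 2.46e-05), and Cx3cr1 averaged 164 ± 15.7 CPM and 226 ± 26.6 CPM (-0.47, adjusted p = 7.64e-04). Ackr3, a chemokine scavenger receptor named here after its values were seen, was at trace level, with 0.0349 CPM with hemin and 0.404 CPM with TGF-β1 alone (-3.54, adjusted p = 0.0135).

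Of 33 receptors for nucleotides, lipids, adenosine and amines, 9 rose and 3 fell, with a median of 0.16. Ptgir, the prostacyclin receptor, averaged 31.7 ± 4.65 CPM with hemin and 15.9 ± 1.63 CPM with TGF-β1 alone (1.00, adjusted p = 2.61e-06). S1pr2, a sphingosine phosphate receptor, averaged 91.0 ± 3.13 CPM with hemin and 69.6 ± 2.50 CPM with TGF-β1 alone (0.39, adjusted p = 7.54e-06). Hcar2, a receptor for hydroxycarboxylic acids, and Gpr34, a receptor for lysophosphatidylserine, were lower. Hcar2 averaged 5.77 ± 1.08 CPM with hemin and 13.7 ± 1.40 CPM with TGF-β1 alone (-1.25, adjusted p = 3.04e-06), and Gpr34 averaged 2.47 ± 0.568 CPM and 5.73 ± 0.626 CPM (-1.22, adjusted p = 5.06e-05).

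The direct partners of RGS proteins are the G protein subunits. Of 12 tested Gα genes, 1 rose and 1 fell, and the abundant Gi gene Gnai2 was not among them (0.02, adjusted p = 0.861). Gna15, a Gq-class subunit of blood cells, averaged 76.6 ± 4.29 CPM with hemin and 62.7 ± 4.16 CPM with TGF-β1 alone (0.29, adjusted p = 0.00155), a call lost on the FPKM scale. Gna12 averaged 133 ± 7.77 CPM with hemin and 156 ± 15.1 CPM with TGF-β1 alone (-0.24, adjusted p = 0.0206), a call lost without hemin replicate 3 or hemin replicate 6. Of 11 Gβ and Gγ genes 1 passed. It was Gngt2, at 22.0 ± 3.90 CPM with hemin and 12.6 ± 2.69 CPM with TGF-β1 alone (0.81, adjusted p = 0.00109).

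Other proteins carry an RGS domain or act at the same step. Of 13 tested RGS-domain genes outside the family, 2 rose and 1 fell. Grk5, a receptor kinase, averaged 16.5 ± 1.76 CPM with hemin and 10.6 ± 1.71 CPM with TGF-β1 alone (0.64, adjusted p = 7.49e-04), and Arhgef11, a guanine nucleotide exchange factor, averaged 64.2 ± 4.03 CPM and 75.1 ± 3.45 CPM (-0.23, adjusted p = 0.00542). Snx14, a sorting nexin (0.20, adjusted p = 0.0384), lost its call on the FPKM scale and without most single libraries. Of 10 other G protein modulators, Gpsm2 was higher (0.29, adjusted p = 0.0289), a call lost on the FPKM scale and without several single libraries. Gpsm1, like Gpsm2 a GoLoco protein that binds inactive Gi, averaged 6.78 ± 1.08 CPM with hemin and 9.45 ± 1.26 CPM with TGF-β1 alone (-0.48, adjusted p = 0.0143). Of the 2 tested arrestins, Arrb1 was higher (0.24, adjusted p = 0.0116) in edgeR and not on the FPKM scale.

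Downstream, the cAMP arm had 2 genes higher and 4 lower of 23 tested, with a median of -0.10. Pde4b, a cAMP phosphodiesterase, averaged 8.14 ± 0.726 CPM with hemin and 4.60 ± 1.17 CPM with TGF-β1 alone (0.82, adjusted p = 0.00216). Pde3b, another phosphodiesterase, averaged 21.6 ± 1.33 CPM with hemin and 33.3 ± 3.21 CPM with TGF-β1 alone (-0.62, adjusted p = 2.53e-05). The transcription factor gene Creb1 was lower (-0.28, adjusted p = 0.00223), and the regulatory kinase subunit gene Prkar2b was higher (0.25, adjusted p = 0.00514) in edgeR but not on the FPKM scale. The FPKM scale called 1 gene of this arm higher and 9 lower.

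The phospholipase C and calcium arm had 4 higher and 3 lower of 17, with a median of -0.11. Itpr3, a calcium release channel, averaged 80.5 ± 8.39 CPM with hemin and 112 ± 13.7 CPM with TGF-β1 alone (-0.48, adjusted p = 7.66e-04), and its paralogue Itpr2 averaged 30.8 CPM and 25.2 CPM (0.29, adjusted p = 0.00592). Prkca, a protein kinase C gene, averaged 4.20 ± 0.0704 CPM with hemin and 6.26 ± 0.419 CPM with TGF-β1 alone (-0.57, adjusted p = 7.88e-04), and Prkcb averaged 41.5 ± 2.28 CPM and 34.3 ± 1.65 CPM (0.28, adjusted p = 0.00249). The isoforms within each pair thus moved apart in edgeR, while on the FPKM scale the calls of Itpr2 and Prkcb were lost and no gene of this arm was higher.

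Of 11 genes known as targets of cAMP and CREB, 3 rose and 1 fell, with a median of -0.10. Dusp1, a phosphatase of MAP kinases, averaged 13.2 ± 2.82 CPM with hemin and 6.51 ± 1.59 CPM with TGF-β1 alone (1.02, adjusted p = 5.45e-04). Sik1, a salt-inducible kinase, averaged 1.76 ± 0.284 CPM with hemin and 2.96 ± 0.794 CPM with TGF-β1 alone (-0.75, adjusted p = 0.0247), a call lost without TGF-β1 replicate 4 or 6 or without hemin replicate 2. Pde4b is also on this list.

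**Figure D5:**
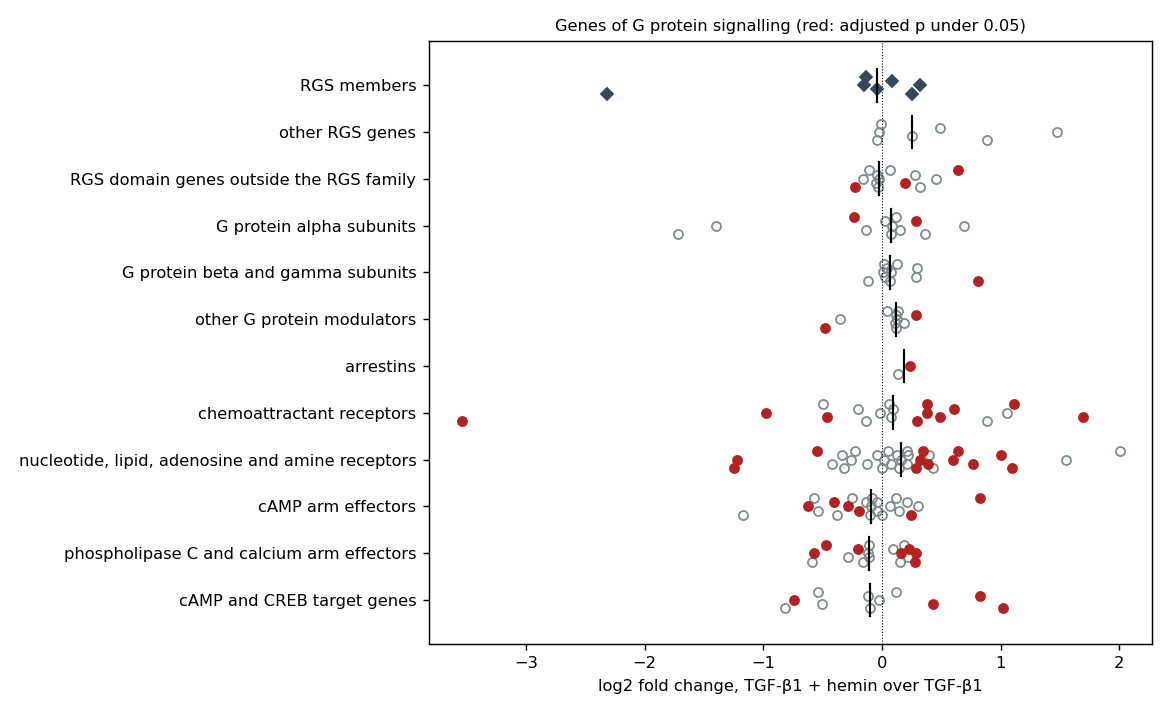
Log2 fold change, TGF-β1 with hemin over TGF-β1 alone, of every tested gene of the 7 members and of 11 lists of G protein signalling genes. Diamonds are the members, filled red circles genes with an edgeR adjusted p under 0.05, open circles the others, and vertical bars the medians. Rgs16 lies at -2.32, and both receptor lists hold changed genes in either direction.

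Terms in the authors' deposited annotation gave a second account of the pathway, with counts that overlap the lists above. Of 153 tested genes annotated to G protein-coupled receptor signalling, 22 rose and 11 fell (21.6%), and 3 of the 7 members are among them. Of 128 genes of the chemokine signalling pathway, none of them a member, 23 rose and 16 fell (30.5%). Of 173 genes with GTPase activator activity, the activity RGS proteins have, 13 rose and 24 fell (21.4%), and 4 of the members are among them.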

How the data were processed

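Polyadenylated RNA of 11 macrophage libraries was sequenced. Per the submitters' processing notes, the build was GRCm39 and the tools were StringTie 2.1.6, HISAT2 2.2.1, DESeq2, FastQC 0.11.9 and cutadapt 1.9, given with no role. The strand setting of counting and the annotation release are not stated there. The deposited table holds raw counts per gene, not normalized, and FPKM values calculated by the authors.

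Libraries were grouped by title prefix, read with the design text. The members and gene lists were chosen with earlier results of these data known. In R 4.3.3, edgeR 4.0.16 (filterByExpr, minimum count 10 and total 15, TMM, quasi-likelihood F test with no covariate) tested 15132 genes in all 11 libraries, 2-sided, with Benjamini-Hochberg adjustment and a threshold of 0.05. Standard errors of log2 fold changes were obtained by dividing them by the root of F. Levels between genes were compared in FPKM. Marker lists were compared as means of log2(FPKM + 1) with an exact permutation test. Named genes are Hmox1, all tested RGS genes, up to 2 higher and 2 lower genes of smallest adjusted p per list, chromosome neighbours, and the 2 genes most like each member. Any other gene was chosen with its values known. Some genes that this rule names are not reported here. Promoter windows are RefSeq (GRCm38.p6), matched by symbol, while coordinates of genes are GRCm39. As alternatives, DESeq2 1.42.0, edgeR with median-of-ratios factors, limma 3.58.1 on log2(FPKM + 1) and log2(FPKM + 0.1), other low-count filters, a replicate block and the removal of libraries were tried. The scripts were tested on simulated data.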

Additional observations from a re-analysis of the deposited data

Results flagged for a closer look

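In 6 of 154 gene-and-group sets, 1 library lay far from the rest of its group, against about 1 in 20 sets by chance. Rgs5 had 0.839 CPM in TGF-β1 replicate 2 and 0 in the other 5 TGF-β1 libraries. Gna12 had 146 CPM in hemin replicate 5 and 126 to 131 CPM in the other hemin libraries. Gpsm2 had 28.0 CPM in TGF-β1 replicate 3 and 21.1 to 23.2 CPM in the others of its group. Slc25a46, the gene most like Rgs18, had 46.1 CPM in hemin replicate 6 and 40.0 to 41.2 CPM in the other hemin libraries, and Cuedc1, the gene most like Rgs1, had 11.4 CPM in hemin replicate 3 and 8.77 to 9.24 CPM in the others. Gm15583, the pseudogene beside Rgs18, had 5.00 CPM in TGF-β1 replicate 6 and 6.25 to 6.99 CPM in the others. None of the 7 members was among them.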

How the results depend on the processing

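Rgs16 stayed between -2.43 and -2.18 on the log2 scale under every alternative run except log2(FPKM + 1), where it was -1.39, since a pseudocount of 1 exceeds its hemin level. At that setting Rgs14 was 0.11 and Rgs19 -0.025, and Rgs19 was -0.026 on log2(FPKM + 0.1). The pathway lists together had 19 higher and 31 lower on log2(FPKM + 1), and 19 and 32 on log2(FPKM + 0.1), against 30 and 17 in edgeR; the cause was not tested beyond the shift of the median of all genes by -0.06 and -0.10. Rgs14 also passed the threshold in DESeq2 and without TGF-β1 replicate 4 or hemin replicate 6, Rgs18 without TGF-β1 replicate 6, and Rgs10 on both FPKM scales. Leaving out single libraries gave 1704 to 2169 changed genes. Leaving out hemin replicates 5 and 6 together, the deepest libraries, gave 1447 changed genes, and Gpsm1, Gpsm2, Arrb1 and Sik1 no longer passed. DESeq2 called 2557. With the replicate number as a block edgeR called 1532 genes, Rgs16 was -2.31, and the lists had 22 higher and 15 lower. Gna12, Gpsm1, Gpsm2, Arrb1 and Snx14 did not pass in that fit. Same-numbered libraries correlated at -0.25 to 0.22 in their deviations from the group means, and 1 of 5 matched its own number best. So few correlations cannot settle whether the numbers pair the samples, and the labels do not state it. Rgs16 had the fewest reads of the members with hemin, 61 to 165 per library. Its SE was also the largest of the members, at 0.20 beside 0.18 for Rgs1, and the part of depth in this was not tested.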
